A study of Mus musculus with 10 samples.

Results

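The added knockout of the transcription factors ETV1 and ETV5, as the labels give it, was examined on a background labelled as lacking COP1 and cJun. The comparison set the 2 libraries labelled COP1, cJun, ETV1 and ETV5 quadruple knockout (QKO) against the 2 labelled COP1 and cJun double knockout (DKO). These are 4 of the 10 libraries of the series, and every gene with enough counts was tested. All libraries came from E18.5 mouse embryo brains with the olfactory bulbs removed. By their labels DKO and QKO share the loss of COP1 and cJun, and differ by ETV1 and ETV5 together. The 6 other libraries, 2 per genotype, serve as points of reference: controls heterozygous for COP1 (control), the COP1 knockout (KO), and the knockout of COP1, cJun and ETV1 (TKO). The labels name no Cre driver, strain, litter or sex, so which cells lost each gene is not known from them. Nothing states that the 2 libraries of a genotype came from separate litters, so a p-value here speaks only of the spread among these libraries, part of which may be technical. Libraries are called by genotype and a number in accession order, which pairs nothing.

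COP1 is a ubiquitin ligase component that marks proteins for degradation, with the help of DET1 and of the Tribbles pseudokinases. Its known substrates include cJun and the PEA3 group of ETS factors, which are ETV1, ETV4 and ETV5. PEA3 factors act downstream of receptor tyrosine kinases such as FGF receptors and of the ERK kinases, and bind DNA around a core GGAA. In the developing brain FGF and ERK signalling takes part in the formation of glia: oligodendrocyte precursor cells (OPCs), which later make myelin, and astrocytes. Both arise from radial glia, the neural stem cells of the embryo.

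The 4 libraries held 46656815 and 31996944 counts (DKO) and 38052935 and 41782062 counts (QKO). Levels are given as nRPKM, the deposited RPKM (reads scaled by gene length and depth) with a size factor for each library. The neuronal microtubule gene Map2 was between 241 and 269 nRPKM in all 10 libraries, and Omp, which marks olfactory sensory neurons, was at most 0.179 nRPKM. Libraries differed in transcripts of neighbouring tissue. The summed level of 9 pituitary genes, 6 of them tested, was 201 CPM in DKO 1 and 54.9 CPM in QKO 1. CPM are counts scaled to the library total with a normalization factor. The sum was 2.6 in DKO 2, 2.54 in QKO 2 and at most 3.67 in the other libraries. The summed level of 11 HOX genes (10 tested), which mark the caudal hindbrain, was 28.3 CPM in QKO 1 and 4.75 in QKO 2. It was 4.3 and 7.95 in DKO, 28.6 and 39.5 in controls, 17.6 and 13.1 in TKO and 3.88 and 1.55 in KO. QKO 1 was thus near the controls, and KO, DKO and QKO 2 were low. None of the 6 tested pituitary genes was called by edgeR or DESeq2 (2 at an unadjusted p under 0.05). None of the 10 tested HOX genes was called by edgeR (4 at an unadjusted p under 0.05, and 1 called by DESeq2). DKO 1 had high Xist and almost no counts of Y-linked genes, the pattern of female tissue, whereas DKO 2 and both QKO libraries had the male pattern.

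In the libraries labelled QKO, the transcripts of Etv1 and Etv4 were higher than in DKO, not lower. Etv1 (gene 14009) stood at 1.98 and 2.11 nRPKM in DKO and 4.71 and 4.38 nRPKM in QKO. The QKO level lay just below the 4.82 and 4.95 nRPKM of the controls, and the TKO libraries, also labelled as lacking ETV1, stood at 3.8 and 3.67 nRPKM. This rise was 2.22-fold (log2 fold change 1.15 ± 0.11, standard error, 2 libraries a group, edgeR adjusted p = 0.000968). Etv4 (gene 18612), the PEA3 gene that no label targets, was at 1.59 and 1.81 nRPKM in DKO and 3.83 and 3.88 in QKO, with 2.09 and 2.29 in TKO and 5.15 and 6.08 in controls. Its rise was 2.27-fold (log2 1.18 ± 0.12, edgeR adjusted p = 0.00125). Both genes passed in each of the 13 alternative fits.

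Etv5 (gene 104156) was at 3.25 and 3.08 nRPKM in DKO and 3.97 and 4.11 in QKO, a log2 difference of 0.35 ± 0.08 that did not pass (edgeR adjusted p = 0.107). Its QKO levels lay above both DKO levels and below the 6.72 and 7.24 nRPKM of the controls. Reads were counted per gene and not per exon, so a deleted exon would not be seen, the Etv1 and Etv5 values check no label, and every direction below rests on the labels. Jun was at 2.94 and 1.61 nRPKM in DKO and 2.05 and 1.44 in QKO, ranges that overlap and lie far below the 15 and 15 nRPKM of controls. Cop1 was at 3.96 and 3.57 nRPKM in DKO and 3.95 and 4.39 in QKO, also overlapping.

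**Figure D1:**
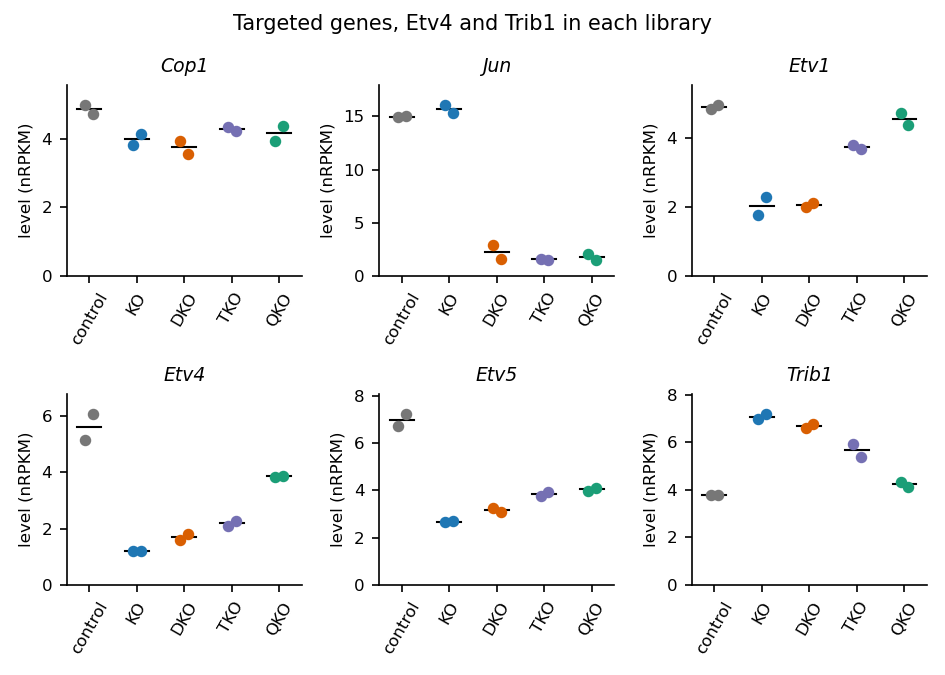
Level in nRPKM (linear axis from 0) of the targeted genes Cop1, Jun, Etv1 and Etv5 and of Etv4 and Trib1 in the 5 genotypes. Each point is 1 library and each bar the mean of 2. Etv1 and Etv4 sit higher in QKO than in DKO and Trib1 lower, while Jun is low in DKO, TKO and QKO alike.

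Promoter sequences are shown for 4 genes out of a larger set that was searched. Etv1 rose, and Olig2, Gna14 and Dusp6, a target gene of ERK signalling, fell. The Dusp6 call was lost in each fit that left out 1 library. Each sequence is the 250 bases before a start of the gene from RefSeq for GRCm38.p6, 5′ to 3′. Capitals mark matches to CCGGAA (an ETS core) or AGGAAG (a PEA3-type core) on either strand (CTTCCT is AGGAAG read from the other strand).

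Etv1 (chr12:38779832-38780081, plus strand): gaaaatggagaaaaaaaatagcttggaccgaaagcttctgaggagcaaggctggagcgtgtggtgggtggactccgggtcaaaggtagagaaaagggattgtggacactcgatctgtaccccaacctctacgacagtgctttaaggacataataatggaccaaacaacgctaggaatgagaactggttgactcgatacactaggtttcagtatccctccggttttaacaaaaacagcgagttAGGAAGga

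Olig2 (chr16:91225300-91225549, plus strand): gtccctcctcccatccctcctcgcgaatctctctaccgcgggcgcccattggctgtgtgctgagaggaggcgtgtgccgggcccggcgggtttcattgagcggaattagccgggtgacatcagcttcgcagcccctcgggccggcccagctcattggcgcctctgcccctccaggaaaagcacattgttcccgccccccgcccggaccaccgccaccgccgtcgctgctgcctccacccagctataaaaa

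Gna14 (chr19:16435417-16435666, plus strand): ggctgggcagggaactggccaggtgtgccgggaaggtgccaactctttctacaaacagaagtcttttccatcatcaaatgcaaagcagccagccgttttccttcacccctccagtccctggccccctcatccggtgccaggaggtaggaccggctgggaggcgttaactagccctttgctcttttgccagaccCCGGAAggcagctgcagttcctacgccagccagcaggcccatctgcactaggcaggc

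Dusp6 (chr10:99262981-99263230, plus strand): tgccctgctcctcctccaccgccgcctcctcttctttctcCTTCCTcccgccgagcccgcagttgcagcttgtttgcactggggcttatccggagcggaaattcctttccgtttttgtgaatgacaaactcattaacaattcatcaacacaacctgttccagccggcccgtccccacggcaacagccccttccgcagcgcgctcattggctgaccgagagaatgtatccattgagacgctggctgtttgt

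The Etv1 and Dusp6 windows each held 1 AGGAAG, the Gna14 window held 1 CCGGAA, and the Olig2 window held neither. The window of a second RefSeq start of Etv1 (chr12:38783461-38783710, plus strand) held neither as well. Windows of Pdgfra, Sox8, Slc1a3 and Fgfr3, searched but not shown, also held neither, and that of Bcan held 1 AGGAAG. Among the 32851 promoter windows of this length, 12% held CCGGAA and 29.5% held AGGAAG, and among the 16535 windows of tested genes 18.6% and 28.1% did. Windows were found for 61 of the 95 genes that fell, 16 of the 35 that rose and 13097 of the 18671 tested. Of the 74 windows of genes that fell, 10.8% held CCGGAA and 32.4% held AGGAAG. Of the 18 windows of genes that rose, 11.1% and 33.3% did. Whether these shares differ from those of tested genes was not tested, and called genes without a window are not covered. A match is a run of letters and not a measured binding site. No match says only that these letters are not in the window.

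Of 18671 genes tested, 130 differed between QKO and DKO (0.696%), 35 higher (0.187%) and 95 lower in QKO (0.509%). A gene was called at an edgeR adjusted p under 0.05. DESeq2 called 228 genes (1.22%), 123 of them in common. The median log2 fold change over all tested genes was 0.0033, and 1943 genes had an unadjusted p under 0.05. For all 130 genes both QKO libraries lay on one side of both DKO libraries, which was also so for 33.8% of all tested genes. Of the 130, 41 (12 higher and 29 lower) were called in all 4 fits that each left out 1 of the libraries. Each of these fits has a lone library in 1 group and takes the spread of that group from the other groups. The fit on the DKO and QKO libraries alone called 28 genes, 21 of the 130 among them. The 130 include 20 identifiers without a symbol. Leaving out DKO 2 left 72 calls in all, 47 of them lower, and leaving out QKO 2 gave 96 higher calls. Since both groups are bulk brain tissue, fewer cells of a type and less RNA per cell cannot be told apart.

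Transcription factors and the growth factor receptor of OPCs were lower in QKO. Olig2 (gene 50913), a basic helix-loop-helix factor required for the oligodendrocyte lineage, was at 22.9 and 19.7 nRPKM in DKO and 11.6 and 11 in QKO. The QKO levels were below those of the other 8 libraries, with 18.4 and 19.5 nRPKM in TKO, 28 and 25.1 in KO and 11.9 and 13 in controls. Olig2 fell 1.89-fold (log2 -0.92 ± 0.09, 95% interval -1.12 to -0.72, edgeR adjusted p = 0.000968), and it passed in each of the 13 alternative fits. Olig1, its neighbour and relative, was at 73.1 and 59.7 nRPKM in DKO and 41.8 and 37 in QKO (log2 -0.76 ± 0.13, edgeR adjusted p = 0.026). Pdgfra, the receptor through which platelet-derived growth factor drives OPC division, was at 16.3 and 18.502 nRPKM in DKO and 12.8 and 11.8 in QKO (log2 -0.50 ± 0.08, edgeR adjusted p = 0.0138). Sox8, a SOX factor of the lineage, was at 14 and 12.9 nRPKM in DKO and 8.88 and 9.52 in QKO (log2 -0.55 ± 0.08, edgeR adjusted p = 0.0103). In all 4 genes both QKO libraries lay below both DKO libraries.

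Of the 14 OPC genes tested these 4 fell, none rose and 10 did not pass. The median log2 fold change was -0.32, 11 of 14 values were below 0, and 10 genes had an unadjusted p under 0.05 and were lower. Over all 18671 tested genes 0.509% were called lower and 0.187% higher, and 49.1% of values lay below 0. At an unadjusted p under 0.05, 1022 of them were lower and 921 higher. The counts of the lists below have the same background. Among the OPC genes that did not pass, Sox10, a regulator of oligodendrocyte fate, was at log2 -0.72 ± 0.17 (edgeR adjusted p = 0.0974). The chondroitin sulphate proteoglycan gene Cspg4 was at -0.31 ± 0.14. Gpr17, Bcas1 and Vcan had values above 0, at 0.31 ± 0.15, 0.24 ± 0.14 and 0.21 ± 0.13. The number of OPC genes called was 2 without QKO 1 and 2 without QKO 2. Olig1 missed the threshold without DKO 1 (edgeR adjusted p = 0.101), QKO 1 (0.0506) or QKO 2 (0.078). Pdgfra missed it without DKO 2 (0.0722) or QKO 2 (0.0519), and Sox8 without QKO 1 (0.0633). With the libraries that carried pituitary transcripts, DKO 1 and QKO 1, both left out, 3 OPC genes were called, Olig2 among them (edgeR adjusted p = 0.00375). That fit sets 1 DKO library against 1 QKO library and takes their spread from the other genotypes.

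Of genes of mature, myelinating oligodendrocytes none of the 10 tested passed, 5 values lay on either side of 0 and the median was -0.01, with 2 at an unadjusted p under 0.05 (DESeq2 called 0). Mbp, the myelin basic protein gene, was at log2 -0.06 ± 0.07. Enpp6, a marker of newly differentiating oligodendrocytes, was at 1.87 ± 0.50 (edgeR adjusted p = 0.175).

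**Figure D2:**
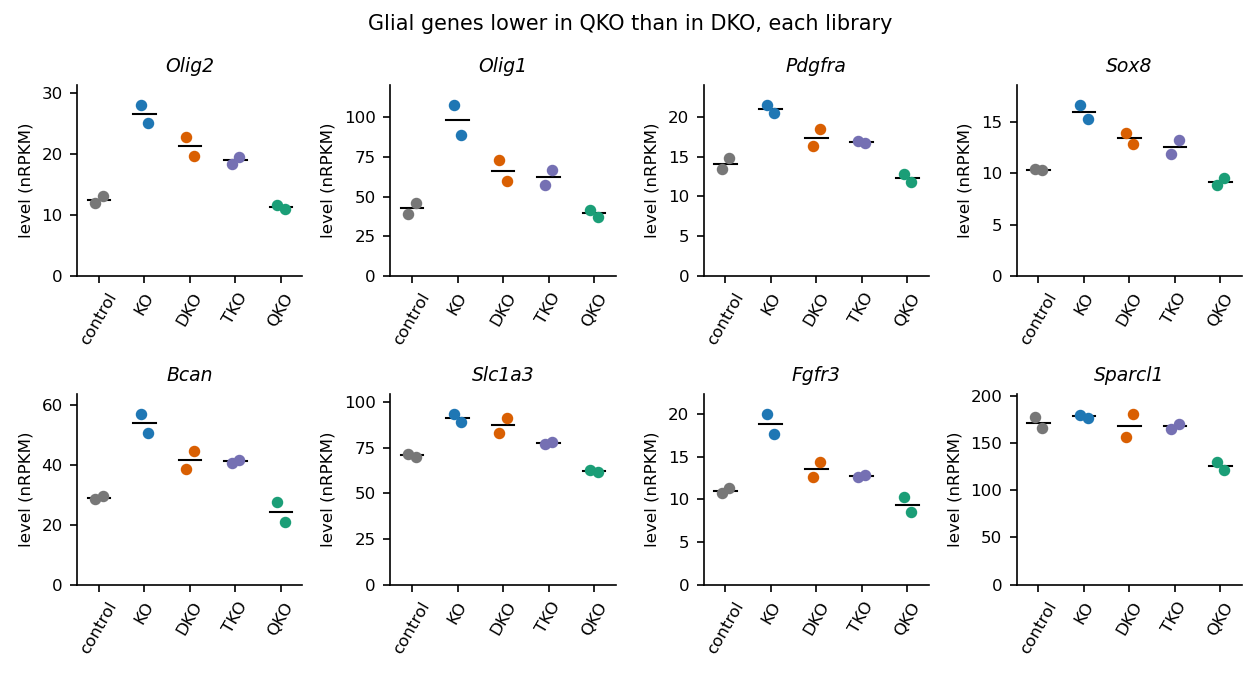
Level in nRPKM (linear axes from 0) of 8 genes of OPCs or astrocytes that were lower in QKO than in DKO, by genotype. Each point is 1 library and each bar the mean of 2. For all 8 genes both QKO points lie below both DKO points, and for Olig2 the KO points are the highest.

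Some astrocyte genes were also lower. Slc1a3, the glutamate transporter of radial glia and astrocytes, was at 83.2 and 91.6 nRPKM in DKO and 62.9 and 61.9 in QKO (log2 -0.49 ± 0.07, edgeR adjusted p = 0.00719). Fgfr3, the FGF receptor of glial progenitors, was at 12.6 and 14.4 nRPKM in DKO and 10.3 and 8.55 in QKO (log2 -0.52 ± 0.10, edgeR adjusted p = 0.0364). Sparcl1, a secreted astrocyte protein, was at 156 and 181 nRPKM in DKO and 129.8 and 122 in QKO (log2 -0.42 ± 0.08, edgeR adjusted p = 0.0403). These 3 of the 14 astrocyte genes fell, against 0.509% of all tested genes, none rose, and 11 did not pass. The list had a median of -0.28 and 8 genes lower at an unadjusted p under 0.05, against 1022 of all 18671. Gfap, the astrocyte filament gene, was at -0.73 ± 0.27 and did not pass (edgeR adjusted p = 0.373), Aldh1l1 was at -0.11 ± 0.08 and Gja1, a gap junction gene, at 0.06 ± 0.08. No astrocyte gene was called without DKO 2, where the adjusted p-values by edgeR were 0.0503 for Slc1a3, 0.158 for Fgfr3 and 0.182 for Sparcl1. Without QKO 2, 1 was called (Slc1a3), Fgfr3 was at 0.0906 and Sparcl1 at 0.104. Without QKO 1, Sparcl1 missed the threshold at 0.0863.

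Of the 15 radial glia genes Slc1a3 alone passed, and the median was -0.12. Hes1, a Notch effector that keeps progenitors undifferentiated, was at -0.55 ± 0.11 (edgeR adjusted p = 0.0509), Pax6 at 0.20 ± 0.07, Nes at 0.26 ± 0.08 and the lipid binding protein gene Fabp7 at 0.12 ± 0.08. The Notch pathway list had 0 of 12 genes called by edgeR and 1 by DESeq2, while 7 reached an unadjusted p under 0.05, 5 of them lower. Of all 18671 tested genes 1943 reached that p, which is the background for the lists that follow too. The neurons' own lists gave no call either. Cortical layer (14 genes), GABAergic interneuron (12), striatal (11) and neuronal maturation (14) lists had medians of -0.01, 0.05, 0.03 and -0.04, with 2, 3, 3 and 2 genes at an unadjusted p under 0.05. DESeq2 called 1 of their members. Among 9 genes of intermediate progenitors, the dividing daughters of radial glia that make neurons, 8 had values above 0 with a median of 0.16 and none passed (3 at an unadjusted p under 0.05, and 0 called by DESeq2). Eomes was at 0.47 ± 0.15 and Neurog2 at 0.55 ± 0.15. Among 16 proliferation genes the median was 0.10 and none passed (4 at an unadjusted p under 0.05, and 0 called by DESeq2).

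**Figure D3:**
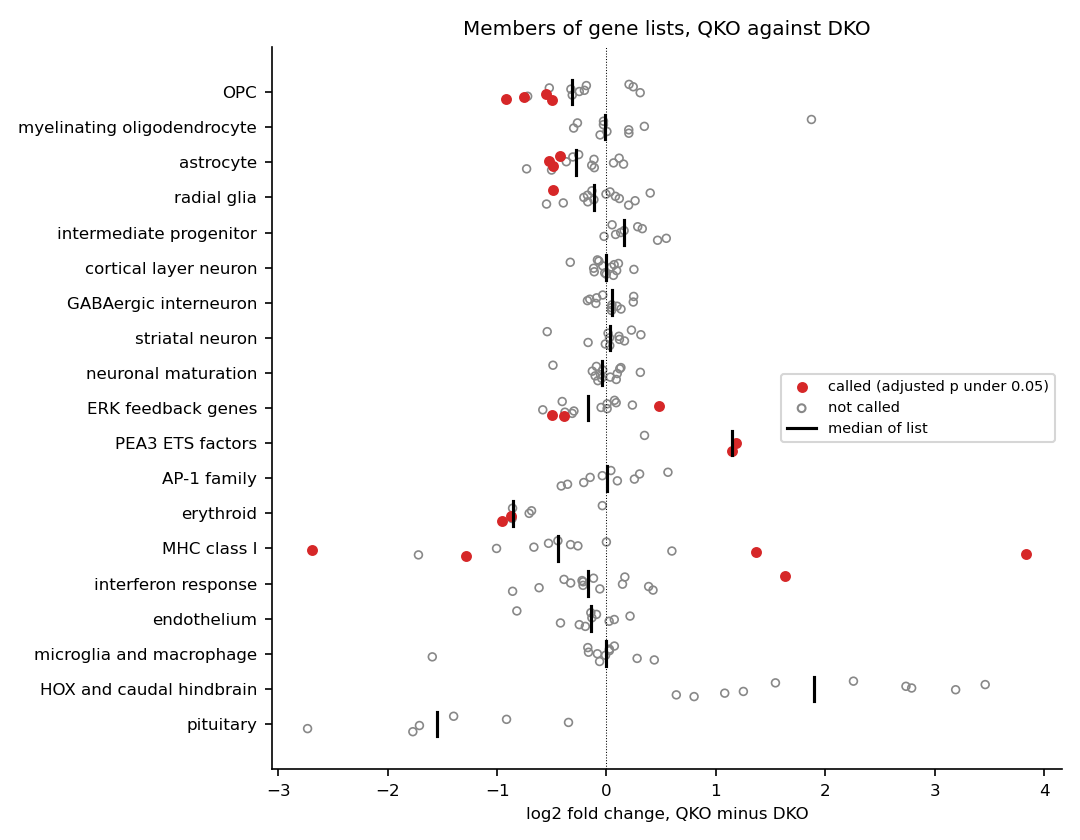
Log2 fold change, QKO minus DKO, of every tested member of 19 gene lists. Each symbol is 1 gene, red where it was called, and black bars are list medians. OPC and astrocyte genes hold red symbols below 0 only, neuronal lists hold none, and the pituitary and HOX lists spread widely without a call.

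Further genes expressed in glia were among the 95 that fell; except for Tmem229a and Plpp3 they were chosen after their values were seen. Tmem229a, a membrane protein gene, was at 8.75 and 9.43 nRPKM in DKO and 5.6 and 5.34 in QKO (log2 -0.73 ± 0.08, edgeR adjusted p = 0.00125) and passed in all 13 alternative fits. Bcan, which encodes the proteoglycan brevican of the glial extracellular matrix, was at 38.5 and 44.6 nRPKM in DKO and 27.7 and 20.9 in QKO (log2 -0.77 ± 0.12, edgeR adjusted p = 0.0137, and 0.0642 without DKO 2). Hepacam, a glial adhesion protein gene, was at log2 -0.52 ± 0.09, and its call was lost without DKO 2 (edgeR adjusted p = 0.116) or QKO 2 (0.078). Plpp3, a lipid phosphatase gene, was at log2 -0.43 ± 0.06 (edgeR adjusted p = 0.00987, and 0.0515 without DKO 2). Fzd9, a Wnt receptor gene, was at -0.72 ± 0.11, and its adjusted p by edgeR was 0.0608 without DKO 1 and 0.0602 without QKO 2.

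Among 10 genes of the COP1 ligase and the Tribbles family, Trib1 was the one that changed. Trib1 encodes the pseudokinase that brings substrates to COP1. It was at 6.61 and 6.78 nRPKM in DKO and 4.32 and 4.12 in QKO, close to the 3.79 and 3.76 nRPKM of controls, with 5.92 and 5.38 in TKO and 6.96 and 7.18 in KO. It fell 1.59-fold (log2 -0.67 ± 0.08, edgeR adjusted p = 0.00345) and was called in every fit that left out 1 library. Trib2 was at -0.14 ± 0.07, Det1 at -0.00 ± 0.10 and Ddb1 at -0.02 ± 0.08, and none of them passed. Of the 10 AP-1 genes, the family of cJun, none passed, 1 had an unadjusted p under 0.05 (DESeq2 called 0) and the median was 0.001.

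Genes that ERK signalling induces to restrain itself gave small changes in both directions. Of 14, Spry4 and Dusp6 fell, Spred3 rose and 11 did not pass, and 7 had an unadjusted p under 0.05 and were lower. Over all 18671 tested genes 0.509% fell and 0.187% rose, and 1022 were lower at that unadjusted p. Spry4, a Sprouty inhibitor of receptor tyrosine kinase signalling, was at 3.68 and 4.02 nRPKM in DKO and 2.74 and 2.7 in QKO (log2 -0.50 ± 0.08, edgeR adjusted p = 0.0242). Dusp6, the phosphatase that inactivates ERK, was at 14.7 and 13.5 nRPKM in DKO and 10.2 and 11.3 in QKO (log2 -0.39 ± 0.08, edgeR adjusted p = 0.0482). Spred3, a relative of the Sproutys, was at 7.22 and 6.94 nRPKM in DKO and 9.8 and 9.97 in QKO (log2 0.48 ± 0.07, edgeR adjusted p = 0.012). The groups did not overlap for any of the 3. Spry1 was at -0.38 ± 0.08 (edgeR adjusted p = 0.07005) and Spry2 at -0.31 ± 0.09 without passing. Dusp6 was lost without any 1 of the 4 libraries (edgeR adjusted p between 0.0505 and 0.263). Spry4 was lost without DKO 2 (0.111), QKO 1 (0.0879) or QKO 2 (0.0655), and Spred3 without DKO 2 (0.0682). None of the 14 was called without DKO 2, and 1 without QKO 1.

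Among 12 immediate early genes outside AP-1, Egr1 rose and Arc fell. Egr1, an early response transcription factor, was at 1.73 and 2.01 nRPKM in DKO and 3.05 and 2.91 in QKO (log2 0.67 ± 0.12, edgeR adjusted p = 0.0326), and lost its call without any 1 of the 4 libraries (edgeR adjusted p between 0.0521 and 0.175). Arc, a synaptic activity gene, was at 2.33 and 1.77 nRPKM in DKO and 1.22 and 1.14 in QKO (log2 -0.81 ± 0.15, edgeR adjusted p = 0.0326). Of the 4 fits without a library it was called in the one without DKO 2, with edgeR adjusted p-values of 0.179 without DKO 1, 0.0929 without QKO 1 and 0.0826 without QKO 2. The 2 genes moved in opposite directions, so the list had no common direction.

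Haemoglobin transcripts were lower in QKO, and both DKO libraries were the highest of the 10. Hba-a1, an alpha globin gene, was at 146 and 185 nRPKM in DKO and 76.5 and 94.8 in QKO, with 75.8 and 78.2 in TKO and 63.1 and 73.3 in controls (log2 -0.95 ± 0.12, edgeR adjusted p = 0.00615). The beta globin gene Hbb-bs was at 348 and 459 nRPKM in DKO and 190.1 and 252 in QKO (log2 -0.87 ± 0.15, edgeR adjusted p = 0.0254). Its call was lost without DKO 2 (0.0996) or QKO 1 (0.127). Of 7 erythroid genes tested these 2 fell and 5 did not pass, with a median of -0.86. The summed level of all 9 erythroid genes found was 754 and 931 CPM in DKO, 410.4 and 532 in QKO, and 272 to 424 CPM in the other 6 libraries. The part of blood content in the other changes was not tested. With the erythroid genes removed before the fit 128 genes were called. Endothelial genes (10 tested), which line vessels, gave no call by edgeR or DESeq2 (3 at an unadjusted p under 0.05) and summed to 293 to 312 CPM in DKO and 269.6 to 279 in QKO.

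The metallothioneins, small metal binding proteins that glucocorticoids and zinc induce, were lower in QKO. Mt2 was at 24.3 and 27.3 nRPKM in DKO and 13 and 12.3 in QKO, with 16 and 18.4 in TKO and 14.9 and 15.1 in controls (log2 -1.02 ± 0.12, edgeR adjusted p = 0.00345), and passed in all 13 alternative fits. Its neighbour Mt1, named after its values were seen, was at 36.2 and 44.6 nRPKM in DKO and 22.5 and 20.8 in QKO (log2 -0.90 ± 0.15, edgeR adjusted p = 0.0242). The Mt1 call was lost without DKO 2 (0.0967), QKO 1 (0.0769) or QKO 2 (0.0752). Of 12 hypoxia genes Pdk1, a pyruvate dehydrogenase kinase gene, fell (log2 -0.47 ± 0.09, edgeR adjusted p = 0.0416) and 11 did not pass, with a median of -0.21. Over all tested genes 0.509% fell. Pdk1 lies in a stretch of 8 tested genes along its chromosome with Metap1d and Rapgef4, also called lower, so its fall may not be a separate change. Of the 4 fits without a library Pdk1 was called in the one without DKO 1, with edgeR adjusted p-values of 0.173 without DKO 2, 0.12 without QKO 1 and 0.0986 without QKO 2. The glutathione, integrated stress response, p53 and cholesterol synthesis lists (12, 10, 10 and 13 genes) had no call by either tool, and 4, 2, 3 and 2 of their genes reached an unadjusted p under 0.05.

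Class I genes of the major histocompatibility complex, which present peptides to T cells, changed in both directions. Of 13, H2-T24 and H2-T23 rose, H2-D1 and H2-Q10 fell, and 9 did not pass. H2-T24 was at 0.368 and 0.132 nRPKM in DKO and 5.48 and 2.21 in QKO (log2 3.84 ± 0.47, edgeR adjusted p = 0.00401). H2-D1, a classical class I gene, was at 22.3 and 33.7 nRPKM in DKO and 11 and 12 in QKO (log2 -1.28 ± 0.22, edgeR adjusted p = 0.0242). Control libraries stood apart from each other for H2-D1, at 13.2 and 21.7 nRPKM. H2-Q10 was at 0.599 and 0.958 nRPKM in DKO and 0.114 and 0.12 in QKO (log2 -2.69 ± 0.35, edgeR adjusted p = 0.00615) and H2-T23 at 0.759 and 0.459 nRPKM in DKO and 1.8 and 1.45 in QKO (log2 1.36 ± 0.26, edgeR adjusted p = 0.0403). B2m, the shared light chain of these molecules, was at -0.26 ± 0.12 and did not pass. The count of members called was 2 without DKO 2 and 2 without QKO 1. H2-D1 was lost without DKO 2 (0.0878), QKO 1 (0.13) or QKO 2 (0.0602), and H2-T23 without DKO 2 (0.156) or QKO 1 (0.177). These genes are close copies of one another and vary between mouse strains. Since only uniquely aligned reads were counted, stretches identical between copies add nothing to these values, and each value is uncertain.

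Serpina3n, a serine protease inhibitor that reactive astrocytes make, rose. It was at 0.855 and 1.08 nRPKM in DKO and 3.22 and 2.74 in QKO, while the other 6 libraries, TKO and controls among them, were at most 1.21 nRPKM. The rise was 3.1-fold (log2 1.63 ± 0.16, edgeR adjusted p = 0.000968) and passed in all 13 alternative fits. Its neighbour Serpina3h had 3 counts in each DKO library and 25 and 20 counts in QKO (edgeR adjusted p = 0.0326). That call was lost without DKO 1 (0.215), DKO 2 (0.107) or QKO 1 (0.146). Reads that fit both genes equally are not in these counts of uniquely aligned reads. Serpina3n was the 1 of 11 reactive glia genes that passed. Gfap, Vim (log2 -0.12 ± 0.07) and Cd44 (log2 0.18 ± 0.12) did not. Of 14 interferon response genes Xaf1 rose (log2 1.64 ± 0.32, edgeR adjusted p = 0.0457) and 13 did not pass. Of the 4 fits without a library Xaf1 was called in the one without QKO 1, with edgeR adjusted p-values of 0.257, 0.055 and 0.11 without DKO 1, DKO 2 and QKO 2. None of 11 microglia and macrophage genes was called (3 at an unadjusted p under 0.05, and 1 called by DESeq2), and their summed level was 164 to 166 CPM in DKO and 159.6 to 170.2 in QKO.

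The largest rises belonged to genes at very low levels in DKO. Gpr137b-ps, a pseudogene of the lysosomal membrane protein gene Gpr137b, had 9 and 4 counts in DKO and 552 and 598 in QKO (log2 6.42 ± 0.29, edgeR adjusted p = 1.91e-06). It was also high in KO, with 443 and 353 counts, and low in control and TKO, with at most 12. Gpr137b itself fell from 5.75 and 6.49 nRPKM in DKO to 2.93 and 2.98 in QKO (log2 -1.05 ± 0.09, edgeR adjusted p = 0.000628). The counts hold uniquely aligned reads, so they leave out reads that fit both genes equally. In KO, Gpr137b was at 5.24 and 5.5 nRPKM.

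Akr1c19, an aldo-keto reductase gene, had 4 and 2 counts in DKO, 13 and 5 in TKO, and 116 and 132 in QKO (log2 5.29 ± 0.35, edgeR adjusted p = 6.11e-05). Controls held 40 and 50 counts. The pseudogene Marcksl1-ps4, adjacent to Akr1c19 in the order of tested genes, was similar, with 4 and 5 counts in DKO and 82 and 68 in QKO. Pla2g4e, a cytosolic phospholipase gene, rose from 2.43 and 2.75 nRPKM to 7.11 and 10.6 (log2 1.78 ± 0.17, edgeR adjusted p = 0.000882). Ero1b, an oxidase of the endoplasmic reticulum that helps proteins form disulphide bonds, rose from 1.04 and 1.01 to 2.79 and 2.32 nRPKM (log2 1.31 ± 0.12, edgeR adjusted p = 0.000882). Ero1b was high in KO too, at 1.62 and 1.68 nRPKM, and at 0.879 and 0.901 in TKO. These genes were called in each fit that left out 1 library. Etv1, Etv4, Serpina3n and H2-T24 were too. Other rises were lost in some of these fits. Rps18 (log2 1.67 ± 0.32) missed the threshold without DKO 2 (edgeR adjusted p = 0.126), QKO 1 (0.12) or QKO 2 (0.0775). Clec10a (1.53 ± 0.28), a lectin gene of macrophages, missed it without any 1 of the 4 libraries (edgeR adjusted p between 0.0505 and 0.181), and Eif3j2 (1.26 ± 0.25) without DKO 2 (0.147) or QKO 2 (0.112).

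Among the largest falls outside the histocompatibility genes, Gna14, the alpha subunit of a Gq-type G protein, went from 0.938 and 0.613 nRPKM in DKO to 0.155 and 0.177 in QKO, beside 0.208 and 0.1999 in controls and 0.345 and 0.402 in TKO. It fell 4.72-fold (log2 -2.24 ± 0.25, edgeR adjusted p = 0.0026). Car3, a carbonic anhydrase gene, was at 3.03 and 2.76 nRPKM in DKO, 2.23 and 2.69 in TKO, 0.637 and 0.95 in QKO and 0.595 and 0.426 in controls (QKO against DKO log2 -1.86 ± 0.25, edgeR adjusted p = 0.00647). Kcnn4, a calcium-activated potassium channel gene, fell from 0.875 and 1.03 to 0.328 and 0.304 nRPKM (log2 -1.58 ± 0.21, edgeR adjusted p = 0.00615). All 3 were called in each fit that left out 1 library. In the fit on the DKO and QKO libraries alone Car3 passed (edgeR adjusted p = 0.0443), but Gna14 (0.0653) and Kcnn4 (0.111) did not. In each of these 3 genes both DKO libraries were also above both controls.

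The heat shock gene Hspa1b was at 2.23 and 4.09 nRPKM in DKO and 0.501 and 0.63 in QKO (log2 -2.46 ± 0.42, edgeR adjusted p = 0.0258), with the controls at 0.628 and 1.82 nRPKM. Its call was lost without DKO 2 (0.0891), QKO 1 (0.151) or QKO 2 (0.0651). Matn4, a matrix protein gene, was at log2 -1.29 ± 0.19 (edgeR adjusted p = 0.0102, and 0.0578 without QKO 1) and Edar, the ectodysplasin receptor gene, at -1.14 ± 0.21, with edgeR adjusted p between 0.078 and 0.113 when any 1 library was left out. Pla2g3, a secreted phospholipase gene, was at -1.10 ± 0.19 and was lost without DKO 2 (0.0996) or QKO 2 (0.0683). Gm8909 had 59 and 82 counts in DKO and 0 and 6 in QKO (log2 -4.59 ± 0.68, edgeR adjusted p = 0.0114). Gm10499 had 96 and 112 counts in DKO and 2 and 15 in QKO (log2 -3.68 ± 0.54). Both lay in a run of called genes spanning 11 tested genes that also held H2-T24, H2-T23 and H2-T10. Further class I genes were low in QKO: H2-Q3 had 25 and 34 counts in DKO and 1 and 3 in QKO, H2-K2 was at -2.32 ± 0.46 and H2-T10 at -1.47 ± 0.27. Each was called in 1 of the 4 fits without a library, that without DKO 1.

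Among the genes called in every fit that left out 1 library were several of mitochondria and peroxisomes, all lower in QKO. Metap1d, a mitochondrial methionine aminopeptidase, was at 9.93 and 10.3 nRPKM in DKO and 5.92 and 4.31 in QKO (log2 -0.99 ± 0.13, edgeR adjusted p = 0.00615). Lyrm7, an assembly factor of respiratory complex III, was at 2.27 and 2.35 nRPKM in DKO and 1.33 and 1.16 in QKO (log2 -0.90 ± 0.13). Mmut, the methylmalonyl-CoA mutase, was at 11.1 and 10.8 nRPKM in DKO and 6.39 and 7.74 in QKO (log2 -0.63 ± 0.09), and Scp2, a sterol carrier of peroxisomes, at 12.1 and 12.1 nRPKM in DKO and 7.2 and 7.92 in QKO (log2 -0.68 ± 0.09). These 4 genes are on no list and their grouping was made after their values were seen. Of all 130 called genes 95 were lower, and Metap1d lies in a run of lower genes with Pdk1 and Rapgef4. A trait of organelle genes was therefore not shown. In the same set Crb1, a cell polarity gene, was at log2 -1.06 ± 0.14, Kcnip3, which encodes a calcium sensor, at -0.65 ± 0.09, and Igfbp4, an insulin-like growth factor binding protein, at -0.55 ± 0.07. Igfbp4 was at 54.1 and 50.2 nRPKM in DKO, 34.1 and 37.3 in QKO and 36.4 and 35.6 in controls. The smallest p of all falls was that of 2610507I01Rik, a gene named by a clone, at 3.4 and 3.44 nRPKM in DKO and 0.617 and 0.663 in QKO (log2 -2.42 ± 0.11, edgeR adjusted p = 1.91e-06). The other 8 libraries were at no less than 3.4 nRPKM.

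Seen over all 5 genotypes, the 130 genes fell into 4 patterns. In 54 (41.5%) both QKO libraries lay outside the range of the other 8 libraries, which held for 4.51% of all tested genes. Olig2, Pdgfra, Sox8, Slc1a3, Fgfr3, Sparcl1, Mt2, Serpina3n and Gpr137b were of this kind. In 32 (24.6%, against 6.98% of all tested genes) both DKO libraries lay outside instead, as for Hba-a1, Rps7, Acp1, Car3 and Kcnn4. In 19 (14.6%, against 0.311%) both genotypes lay outside, and in 25 neither did, as for Etv1, Etv4, Trib1 and Olig1. The rule that called these genes used the QKO and DKO values, so these shares describe them and test nothing.

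**Figure D4:**
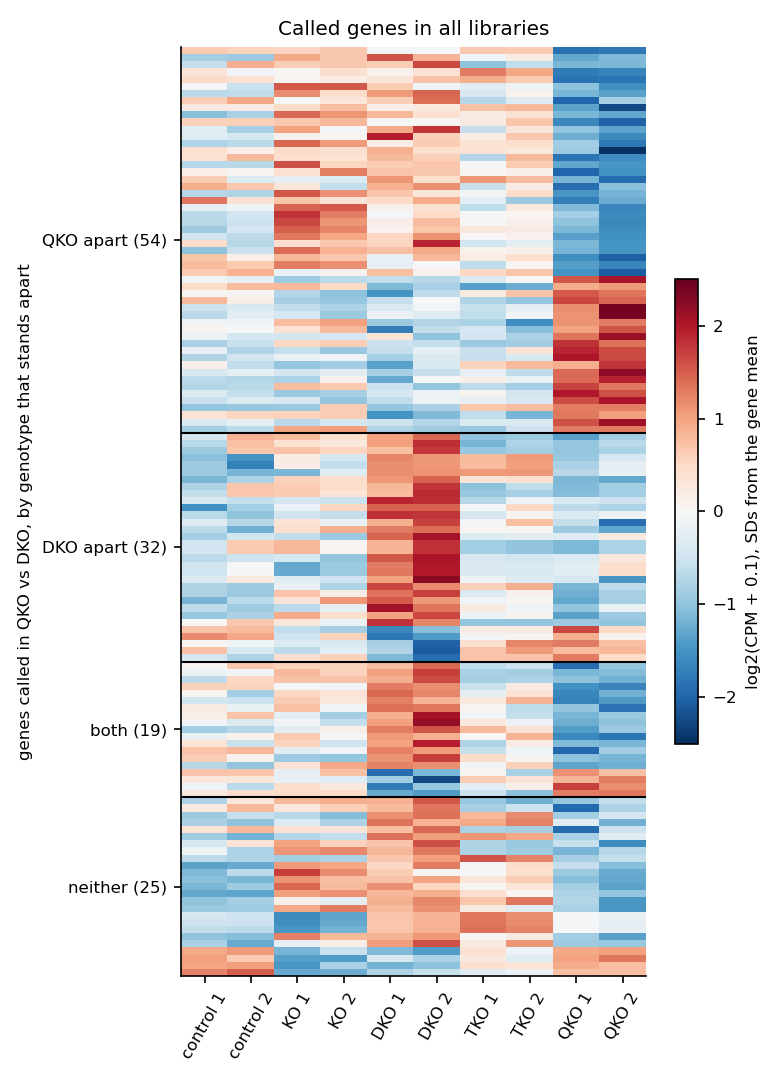
Log2(CPM + 0.1) of the 130 genes called between QKO and DKO (rows) in all 10 libraries (columns), in standard deviations from each gene's mean. Black lines part the genes by the genotype whose 2 libraries lie outside the range of the rest. In the upper block of 54 genes the QKO columns differ from all others, and in the next block of 32 the DKO columns do.

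The QKO libraries can also be set beside TKO, whose label names ETV1 but not ETV5. TKO and DKO differed in 17 genes (0.0911%) and QKO and TKO in 54 (0.289%), and these comparisons share libraries with QKO against DKO. For Olig2 the TKO minus DKO value was -0.16 ± 0.09 (edgeR adjusted p = 0.484) and the QKO minus TKO value -0.76 ± 0.09 (edgeR adjusted p = 0.00346). For Pdgfra they were -0.04 ± 0.08 and -0.46 ± 0.08 (edgeR adjusted p = 0.0353 for the latter), and for Sox8 -0.09 ± 0.08 and -0.46 ± 0.08 (edgeR adjusted p = 0.0441). Etv4 differed at the same step, by 0.81 ± 0.12 (edgeR adjusted p = 0.0171), after 0.37 ± 0.13 between TKO and DKO. Etv1 behaved otherwise, with 0.88 ± 0.12 between TKO and DKO (edgeR adjusted p = 0.0159) and 0.27 ± 0.11 between QKO and TKO. The globin Hba-a1 had a TKO minus DKO value of -1.10 ± 0.13 (edgeR adjusted p = 0.00633) and differed by 0.15 ± 0.13 between QKO and TKO. Of the 130 genes, 27 had a TKO minus DKO value of at least 75% of their QKO minus DKO value, 51 had at most 25% and 52 lay between.

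Set against the controls, DKO differed in 79 genes (0.423%) and QKO in 44 (0.236%), and these comparisons share the control libraries. Olig2 was 0.78 ± 0.09 in DKO minus control (edgeR adjusted p = 0.00249) and -0.14 ± 0.09 in QKO minus control, which did not pass. Trib1 was 0.83 ± 0.08 (edgeR adjusted p = 0.000982) and 0.16 ± 0.08, and Tmem229a 0.71 ± 0.08 (edgeR adjusted p = 0.00141) and -0.03 ± 0.08. Sparcl1 differed from these, with -0.02 ± 0.08 in DKO and -0.45 ± 0.08 in QKO (edgeR adjusted p = 0.057). Etv5 remained below control in both, at -1.14 ± 0.08 in DKO (edgeR adjusted p = 0.000156) and -0.79 ± 0.08 in QKO (edgeR adjusted p = 0.00169).

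Several called genes lay before Etv1 in the order of genes along its chromosome, the nearest 38 tested genes away. Among the 25 tested genes on either side of Etv1, 0 of 50 were called. Among the 50 on either side, 3 of 100 were called, against 0.696% of all tested genes: Rps7, Adi1 and Acp1. Rps7, a protein of the small ribosomal subunit, was at 27.4 and 27.1 nRPKM in DKO and 12 and 13.3 in QKO, with 11.8 and 14.1 in TKO, 11.4 and 11 in KO and 10.7 and 9.52 in controls (log2 -1.11 ± 0.10, edgeR adjusted p = 0.000882). It was the 1 of 14 ribosomal protein genes on the list that was called (Rps18 is not on it). Acp1, a phosphatase gene, was at 2.55 and 2.5 nRPKM in DKO and 1.14 and 1.09 in QKO (log2 -1.18 ± 0.13, edgeR adjusted p = 0.00181). Adi1, of the methionine salvage pathway, rose (log2 0.67 ± 0.11, edgeR adjusted p = 0.0212), a call lost without DKO 2 (0.0648) or QKO 2 (0.0602).

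Within 100 tested genes on either side of Etv1, 8 of 200 were called, all on the same side, and on its whole chromosome 11 of 631 (1.74%, against 0.696% of all tested genes). On the chromosome of Etv5, 2 of 518 other genes were called, Olig2 and Olig1, 266 and 267 tested genes away. Around Jun 1 of 100 was called (Plpp3) and 3 of 200 (Plpp3, Acot11 and Scp2, all lower), around Cop1 none of 100 and 2 of 200 (Nr5a2 and Crb1, both lower), and around Etv5 none of 100 or of 200. The chromosome of H2-D1 held 20 called genes among 846 (2.36%). The X chromosome held none of 603. Of 110 called genes with a RefSeq place, 50 lay in 19 runs of called genes at most 10 tested genes apart. Ero1b, Gpr137b-ps and Gpr137b formed a run spanning 4 tested genes, and Akr1c19 and Marcksl1-ps4 were adjacent. Metap1d, Pdk1 and Rapgef4, all lower, formed a run spanning 8. Genes in a run may not be separate changes, which was not tested, and no such share was computed for all tested genes.

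**Figure D5:**
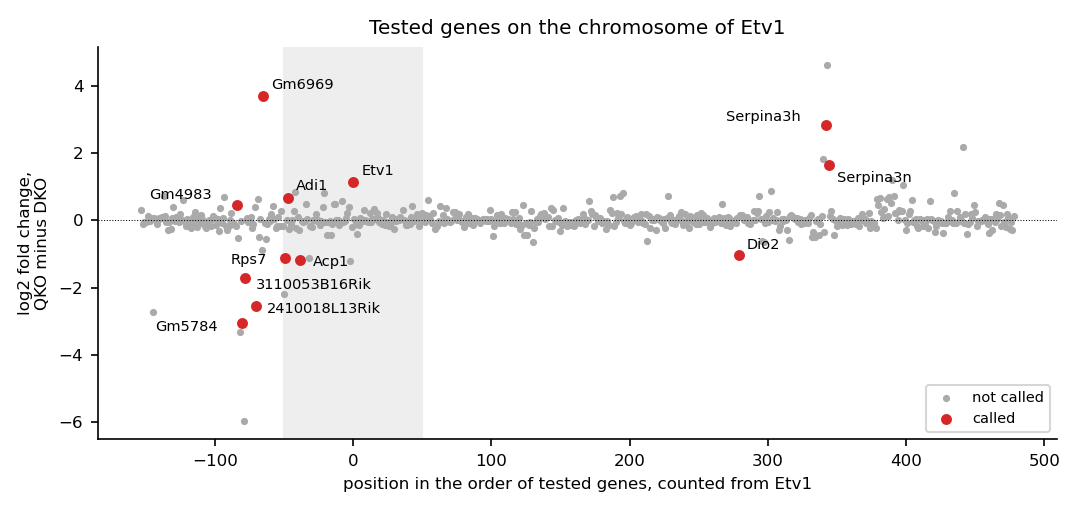
Log2 fold change, QKO minus DKO, of the tested genes on the chromosome of Etv1, in their order along it and counted in genes from Etv1 at 0. Red points were called and are named, and the shaded band covers 50 tested genes on either side. Called genes other than Etv1 sit from 38 to 84 genes before it, and Dio2, Serpina3h and Serpina3n far after it.

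Sex was unbalanced, with 1 library of female pattern in DKO and none in QKO. With the log2 level of Xist as a covariate 110 genes were called, 84 of the 130 among them. Without the 2 libraries of female pattern (DKO 1 and control 1) 121 were called, 80 of the 130 among them, with 1 DKO library left. Olig2 (edgeR adjusted p = 0.00277 with the covariate), Etv1 (0.00282), Etv4 (0.00289), Trib1 (0.00553) and Serpina3n (0.00293) passed in both. Olig1 did not pass with the covariate (edgeR adjusted p = 0.0663). Without the libraries of female pattern 2 OPC genes were called, Olig2 (0.00369) and Pdgfra (0.0131).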

How the data were processed

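Libraries of RNA from embryonic mouse brain (10) were read as 75 bp paired ends from polyadenylated RNA, per the labels' protocols. Reads were aligned with GSNAP to NCBIM37, per the submitters' processing notes; none of version, annotation release and strand use is given in the sources used here. The authors deposited, per the file headers, the count of uniquely aligned reads per gene and an RPKM value scaled by a size factor (nRPKM). Library totals were 31996944 to 54594523 counts, and 3 counts equal 0.055 to 0.0938 CPM, which bounds counting error only. RefSeq for GRCm38.p6 named 24998 of 28059 gene identifiers (95.8% of counts).

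Counts were tested with edgeR 4.0.16 (R 4.3.3), quasi-likelihood, on 5 group means over 10 libraries, with TMM, filterByExpr (18671 genes kept, 9388 set aside, 5 residual degrees of freedom) and Benjamini-Hochberg adjustment across every tested gene. Alternatives used DESeq2 1.42.0, other filters, scaling and covariates, and left out libraries. Libraries of a group differed by more than sampling noise (chi-square per degree of freedom 7.51 to 19.5). SE values derive from the F statistic. The code was run on simulated data with the same spread for every gene and group. As DKO and QKO spread more than the other groups here, that run does not show the error rate of this comparison.

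The comparison and the 42 gene lists (4 of 475 symbols not found) were chosen with earlier results of these data known. No list was tested as a set: counts and medians describe it. Genes named are the targeted genes and Etv4, the 15 largest called changes each way with a proper symbol, called list members, called neighbours of targeted genes, the 10 smallest p each way, genes called in all 4 leave-one-out fits, and examples from lists without calls. Others are said to be chosen after seeing values.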

Additional observations from a re-analysis of the deposited data

How the results depend on the processing

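No called gene named in the text changed sign in the 13 alternative fits. The main comparison gave 130 calls, 35 higher and 95 lower. DESeq2 gave 228 (57 higher, 171 lower), no filter on low counts 318 (97 and 221), and a mean of at least 1 CPM left 23 higher. The fit on the DKO and QKO libraries alone, with 2 residual degrees of freedom, gave 28 (14 and 14), 21 of them shared. Leaving out 1 library gave 72 to 160 calls, with 25 to 96 higher and 47 to 98 lower; the lone library is then assumed to vary like the other groups. Without DKO 1 and QKO 1, an alternative added after seeing their pituitary transcripts, 152 were lower, with 1 library left in each group and the spread taken from the other genotypes. The cause of these shifts was not tested. The fit on 4 libraries has fewer samples, and it also lacks the groups whose libraries differed less from each other. All 13 alternatives called 16 of the 130 genes, and 23 were called in no leave-one-out fit. No paired analysis was possible because the replicate numbers are accession order and pair no libraries. Depth limits the genes near 3 counts per library, such as H2-Q3 in QKO and Serpina3h in DKO, and fitted log2 values of such genes depend on the prior count.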
